A study of Mus musculus with 4 samples.

Results

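The forkhead transcription factors share a winged-helix DNA-binding domain, the forkhead box, and are sorted by sequence into subfamilies named by letters. The genes described here are the 42 forkhead genes of 18 subfamilies that were taken by family membership and looked up by identifier among the 55487 genes of a count table. All 42 were found. RNA was sequenced from E14-Tg2a mESCs, an established line of mouse embryonic stem cells that is WT by its label, on day 4 (d4, 2 libraries) and on day 2 (d2, 2 libraries) of a differentiation labelled cardiogenic. The d4 cells had first the same 48 h without serum and were then taken apart and left to reaggregate over 40 h, in the presence of Activin A (8 ng/ml), BMP4 (0.5 ng/ml) and VEGF (5 ng/ml). The d2 cells had the 48 h without serum and no added factor of these. Day, added factors and reaggregation therefore changed together and cannot be told apart. All groups came from 1 cell line and from whole, unsorted cultures.

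In the mouse embryo, forkhead factors act at many steps that lie between a pluripotent cell and its early derivatives. Foxd3 is known for its role in pluripotent cells of the epiblast and later in neural crest. Foxh1 carries NODAL and Activin signals to DNA together with SMAD2 and SMAD3, the FoxO proteins respond to insulin and PI3K-AKT signalling by leaving the nucleus, and the FoxC and FoxF proteins mark mesoderm that gives rise to vessels, heart and gut wall. In a bulk sample, fewer cells of a type and less RNA per cell cannot be told apart.

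Total counts per library were 11397439 and 16851485 at d4, and 12068584 and 14038796 at d2. The floor of detection was set at 3 counts per library, which equalled 0.176 to 0.254 CPM (read counts scaled by the library's total and by TMM factors, which correct for RNA composition). Replicates of a day came, by the study's methods, from separate differentiation experiments. The p-values therefore measure the spread between these experiments together with any difference between their libraries. Replicates of a day differed from each other along transcript GC content (replicate 2 minus replicate 1, Spearman rho across 14924 genes, which are not independent replicates, -0.50 at d4 and -0.73 at d2). Of 10 genes that mark pluripotent cells and epiblast, 9 were lower at d4, with summed levels of 242 and 222 CPM at d4 against 5776 and 4816 CPM at d2. Of 10 endothelial markers, 9 were tested and 7 were higher at d4, while Emcn, at 0.169 and 0.176 CPM at d4 and at 0 counts at d2, lay below the filter. Of 10 markers of splanchnic, cardiac and extraembryonic mesoderm, 7 were higher, among them Hand1 at 311 and 279 CPM at d4 against 0 counts in both d2 libraries. Nkx2-5, which defines cardiac progenitors, stayed at 0.169 and 0.176 CPM at d4, against 0.0816 and 0 CPM at d2.

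Of the 42 forkhead genes, 27 had at least 1 count on each day, 5 had counts at d4 only (Foxc1, Foxc2, Foxd1, Foxd2 and Foxf2), 5 had counts at d2 only (Foxb2, Foxd3, Foxi2, Foxn4 and Foxr1), and 5 had no count in any library (Foxe3, Foxi1, Foxl1, Foxn1 and Foxs1). A filter on low counts, set at 0.5 CPM in the summed libraries of a day, left 23 of the 42 genes for the test. Passing the filter on 1 day alone is enough, so a gene that is high on only 1 day and passes it was bound to differ. With edgeR's quasi-likelihood fit over all 14932 genes that passed, and p-values adjusted over all of them after Benjamini and Hochberg (threshold 0.01), 7 of the 23 were higher at d4 (Foxc2, Foxf1, Foxf2, Foxh1, Foxk1, Foxo4 and Foxq1), beside 12.9% of all genes tested. Another 6 were lower at d4 (Foxd3, Foxi3, Foxj1, Foxn4, Foxo1 and Foxp1), beside 11.3% of all genes. The remaining 10 did not pass. The 23 genes had a median log2 fold change of 0.47, also with genes at 0 counts set to their bounds, against -0.03 for all genes tested. In 12 of the 23, both d4 libraries lay above both d2 libraries, as they did in 35.8% of all genes, and in 7 of the 23 both d4 libraries lay below, as in 35.2% of all genes.

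**Figure D1:**
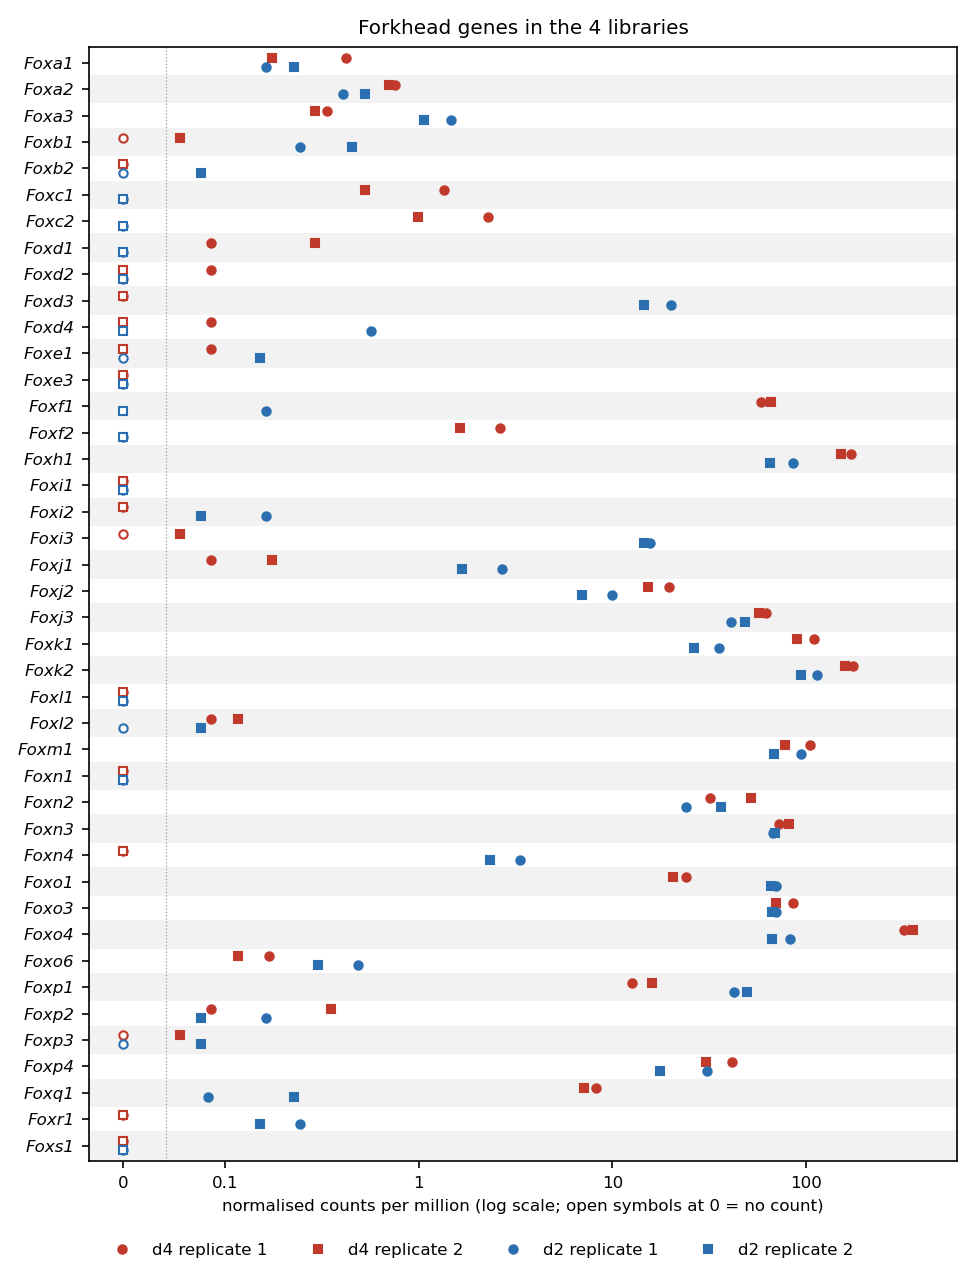
Normalised CPM (log axis) of the 42 forkhead genes in each library, red for d4 and blue for d2, circles for replicate 1 and squares for replicate 2. Open symbols at 0 are libraries with no count; Foxd3 and Foxn4 have both d4 libraries there, and Foxc1, Foxc2 and Foxf2 have both d2 libraries there.

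**Figure D2:**
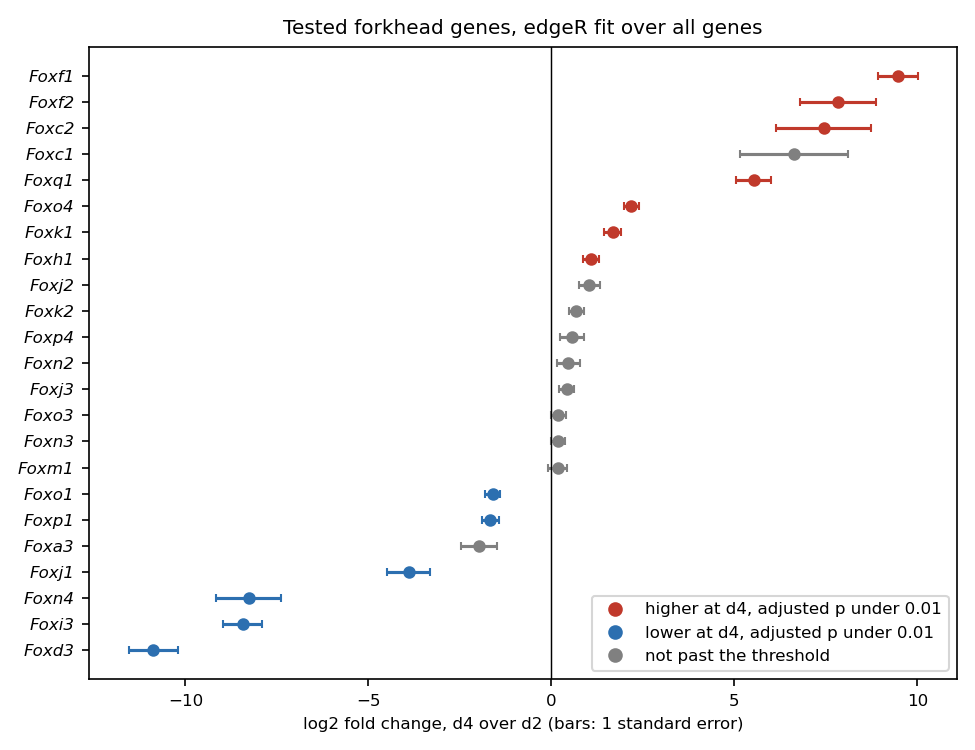
Log2 fold change, d4 over d2, of the 23 tested forkhead genes with bars of 1 standard error from the fit over all genes; red and blue mark adjusted p under 0.01. Genes with no count on 1 day (Foxc1, Foxc2, Foxf2, Foxd3 and Foxn4) have fitted values that depend on a small added count and are no measure of size.

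The mesodermal genes of the FoxF and FoxC subfamilies were at or near 0 counts at d2 and present at d4. Foxf1, which is required in lateral and extraembryonic mesoderm, had 58.7 and 65.9 CPM at d4, against 0.163 and 0 CPM at d2, where the libraries held 2 and 0 counts. Foxf1 passed the filter through d4 alone, so its days were bound to lie apart. The ratio of normalised counts was 801 (exact 95% binomial interval 221 to 6618, counting error only). The log2 fold change was 9.47 ± 0.54 SE (edgeR adjusted p = 6.68e-05, n = 2 each). The d2 level rests on the 2 counts of 1 library. The log2 fold change was 8.45 without d2 replicate 2. Without d2 replicate 1 no d2 count was left, and the fitted 12.77 depends on a small added count and is no measure of size. Foxf2, its paralog in mesenchyme and in the mural cells of vessels, was much weaker, at 31 and 28 counts (2.62 and 1.64 CPM) at d4 and at 0 counts in both d2 libraries. That put it at least 9.03-fold higher at d4 against the floor of 3 counts per library (edgeR adjusted p = 0.00219). Foxf2 likewise passed the filter through d4 alone, so its days were bound to lie apart. Per kilobase of exon, the scale on which genes can be compared, Foxf1 stood at 21.9 and 39.2 times the level of Foxf2 in the d4 libraries.

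Foxc1 and Foxc2, which act in the development of somites, heart outflow and vessels, were also without a count at d2. Foxc2 had 27 and 17 counts (2.28 and 0.999 CPM) at d4 and was at least 6.94-fold higher there (edgeR adjusted p = 0.00656), a call that was lost with DESeq2 size factors (adjusted p = 0.0105). Foxc1 had 16 and 9 counts (1.35 and 0.529 CPM) at d4, a bound of at least 3.98-fold, and missed the threshold (edgeR adjusted p = 0.0162), while DESeq2 (adjusted p = 0.00757) and limma voom (adjusted p = 0.0035) called it higher. For both genes d4 replicate 1 lay well above d4 replicate 2, so the levels at d4 are known only roughly. Foxq1, a factor first known from hair and gastric epithelium, rose to 8.20 and 7.17 CPM at d4, against 0.0816 and 0.227 CPM (1 and 3 counts) at d2, a ratio of normalised counts of 48.3 (exact 95% binomial interval 18.6 to 179; log2 fold change 5.53 ± 0.47 SE, edgeR adjusted p = 0.000219). Without d2 replicate 2 its log2 fold change was 6.35. Foxc1, Foxc2 and Foxq1 passed the filter through d4 alone, so their days were bound to lie apart.

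These genes lie in 2 groups on the chromosomes. On chromosome 8, Foxf1 (chr8:121084386-121088144, 2 exons, GRCm38) starts 1.28 kb from the divergently transcribed long non-coding RNA Fendrr, which is needed in lateral mesoderm, and 31.8 kb before Foxc2 (chr8:121116171-121118895, 1 exon), which lies 11.8 kb before Foxl1, a gene of gut mesenchyme. Fendrr had 20.03 and 16.45 CPM at d4 and 0 counts in both d2 libraries, at least 77.2-fold higher at d4 (edgeR adjusted p = 0.000128). Foxl1 had 0 counts in all 4 libraries, which is below the floor of 3 counts. Mthfsd, a folate metabolism gene that lies between Foxf1 and Foxc2, had 27.3 and 29.7 CPM at d4 and 16.2 and 15.0 CPM at d2 (log2 fold change 0.87 ± 0.21 SE, edgeR adjusted p = 0.0175, not past the threshold). Forkhead genes that lie side by side here thus ranged at d4 from no detection (Foxl1) to the level of Foxf1.

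On chromosome 13, Foxq1 (chr13:31556134-31560976, 1 exon), Foxf2 (chr13:31625816-31631403, 2 exons) and Foxc1 (chr13:31806633-31812476, 1 exon) follow each other on the same strand, with 69.7 kb between the starts of Foxq1 and Foxf2 and 181 kb between those of Foxf2 and Foxc1. All 3 had counts in both d4 libraries and stood at or below the floor at d2. Gmds, the GDP-mannose dehydratase gene beside Foxc1, had 15.8 and 9.52 CPM at d4 and 6.61 and 6.97 CPM at d2 (edgeR adjusted p = 0.0636). The other neighbours that were listed, the antisense RNAs Foxd2os, Foxl2os and Foxo6os, had at most 0.592 CPM in any library and were not tested.

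**Figure D3:**
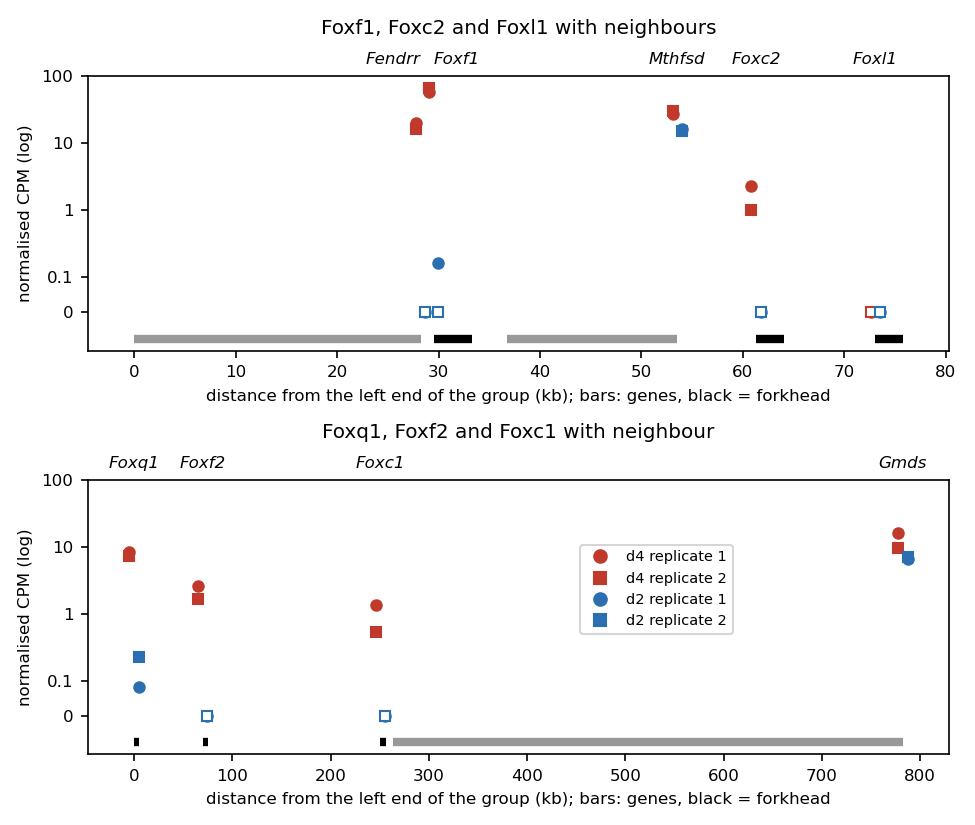
Normalised CPM (log axis; open symbols at 0 are libraries without a count) of the forkhead genes of the groups on chromosomes 8 and 13 and of their neighbours, placed at each gene's start in kilobases from the left end of the group; bars under the points are the genes, black for forkhead genes and grey for neighbours. Foxf1 on chromosome 8 and Foxq1 on chromosome 13 have the highest d4 levels among the forkhead genes of their groups, and Foxl1 lies at 0 in all libraries.

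The start regions of the genes that switched between no counts and counts are shown because they can be compared directly. RefSeq promoters (250 bases before to 50 bases after a start, GRCm38.p6) were given for 27 of the 42 genes, as 32 sequences, and for 6 of the 13 genes that passed the test. Foxf2 and Foxc1 stand for genes counted at d4 only, and Foxd3, Foxi3 and Foxn4 for genes that were lost or nearly lost at d4. CpG dinucleotides are in capitals.
Foxf2, chr13:31625566-31625865, + strand: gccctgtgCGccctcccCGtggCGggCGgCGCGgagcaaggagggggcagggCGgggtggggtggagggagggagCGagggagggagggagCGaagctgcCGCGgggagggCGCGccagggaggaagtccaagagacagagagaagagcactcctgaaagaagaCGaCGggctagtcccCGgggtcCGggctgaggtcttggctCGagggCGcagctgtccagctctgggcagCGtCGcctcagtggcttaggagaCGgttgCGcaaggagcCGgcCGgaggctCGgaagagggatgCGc
Foxc1, chr13:31806396-31806695, + strand: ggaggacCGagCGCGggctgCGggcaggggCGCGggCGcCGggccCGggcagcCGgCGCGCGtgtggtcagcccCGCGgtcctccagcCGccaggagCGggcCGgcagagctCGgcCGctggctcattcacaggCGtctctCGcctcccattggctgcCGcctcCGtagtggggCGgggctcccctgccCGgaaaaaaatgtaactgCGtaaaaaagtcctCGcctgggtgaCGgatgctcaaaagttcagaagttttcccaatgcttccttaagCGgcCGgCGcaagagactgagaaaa
Foxd3, chr4:99656049-99656348, + strand: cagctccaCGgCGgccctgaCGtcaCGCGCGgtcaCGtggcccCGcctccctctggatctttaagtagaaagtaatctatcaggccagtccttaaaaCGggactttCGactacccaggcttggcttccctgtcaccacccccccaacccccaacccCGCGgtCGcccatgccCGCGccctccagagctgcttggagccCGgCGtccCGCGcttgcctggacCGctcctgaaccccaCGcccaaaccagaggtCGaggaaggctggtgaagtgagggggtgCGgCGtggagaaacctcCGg
Foxi3, chr6:70956356-70956655, + strand: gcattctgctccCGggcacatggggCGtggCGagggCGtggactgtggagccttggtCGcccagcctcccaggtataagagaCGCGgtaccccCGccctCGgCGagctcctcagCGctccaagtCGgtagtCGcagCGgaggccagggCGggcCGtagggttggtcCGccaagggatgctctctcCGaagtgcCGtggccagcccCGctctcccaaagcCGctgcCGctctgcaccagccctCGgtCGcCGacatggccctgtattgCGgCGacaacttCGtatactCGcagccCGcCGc
Foxn4, chr5:114273712-114274011, - strand: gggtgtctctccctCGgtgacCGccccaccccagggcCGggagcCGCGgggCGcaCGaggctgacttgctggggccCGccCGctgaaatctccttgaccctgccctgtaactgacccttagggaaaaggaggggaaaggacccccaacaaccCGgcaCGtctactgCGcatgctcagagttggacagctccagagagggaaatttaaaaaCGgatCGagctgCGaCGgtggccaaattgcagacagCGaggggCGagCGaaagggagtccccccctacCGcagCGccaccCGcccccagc
These hold 27, 32, 25, 31 and 22 CpG dinucleotides in 300 bases, and the values of the genes counted at d4 only overlap those of the genes lost at d4. The median over all 32851 mouse promoters of the same length was 7, and 76.9% to 90.5% of them held fewer than these 5. Across the 32 forkhead promoters the count ran from 5 to 59 with a median of 22, and 27 of the 32 were above the median of all promoters.

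The genes that were lost by d4 belong to the FoxD, FoxI, FoxN and FoxJ subfamilies. Foxd3, the epiblast and neural crest factor, had 0 counts in both d4 libraries against 246 and 192 counts (20.1 and 14.6 CPM) at d2. Its level at d4 was at least 80.6-fold lower (edgeR adjusted p = 0.000157). Foxi3, a factor of pharyngeal and surface ectoderm, had 0 and 1 counts at d4 against 192 and 191 counts (15.7 and 14.5 CPM) at d2, and the ratio of d2 to d4 was 434 (exact 95% binomial interval 77.5 to 17204, counting error only; edgeR adjusted p = 9.28e-05). The log2 fold change of Foxi3 was -8.43 ± 0.54 SE with all libraries and -7.80 without d4 replicate 1. Without d4 replicate 2 no d4 count was left, and the fitted -10.55 is no measure of size. Foxn4, known from retinal progenitors and spinal interneurons, had 0 counts at d4 against 41 and 31 counts (3.35 and 2.35 CPM) at d2, a level at least 13.3-fold lower at d4 (edgeR adjusted p = 0.00105). These 3 genes passed the filter through their d2 counts alone, so their days were bound to lie apart. Of the 10 markers of pluripotent cells and epiblast, 9 were also lower at d4.

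Foxj1, the regulator of motile cilia, fell to 0.0845 and 0.176 CPM at d4 (1 and 3 counts), against 2.69 and 1.67 CPM at d2. It passed the filter through d2 alone, so its days were bound to lie apart. The ratio of d2 to d4 was 15.6 (exact 95% binomial interval 5.76 to 59.3; log2 fold change -3.89 ± 0.59 SE, edgeR adjusted p = 0.00226), and without d4 replicate 2 the log2 fold change was -4.53. Of 8 genes of multiciliated cells, 7 were tested and 3 were lower at d4 (Ccno, Dnai1 and Pifo), beside 11.3% of all genes. None was higher by edgeR or by DESeq2. Ccno, a cyclin of centriole amplification, had 0 counts at d4 against 3.84 and 3.87 CPM at d2 (edgeR adjusted p = 0.000482). Summed over the 8 genes, the levels were 15.0 and 44.9 CPM at d4 and 50.8 and 62.0 CPM at d2. Mcidas, a switch gene of the same programme, was at 0 counts at d4 and at 0.245 and 0.531 CPM at d2. The part of such cells in the Foxj1 values was not tested.

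Markers of ectodermal cell types did not move in 1 direction beside Foxd3 and Foxi3. Of 8 neuroectoderm and neural crest genes, 4 were tested and all 4 were lower at d4, with sums of 66.5 and 57.0 CPM at d4 and 161 and 136 CPM at d2. Sox3, a neural and epiblast factor, had 0.761 and 0.470 CPM at d4 against 22.5 and 16.4 CPM at d2 (edgeR adjusted p = 0.000144), and Pax6, Sox1 and Nes were the other 3 that fell. Sox10 and Tfap2b, which define neural crest, were at most at 0.507 and at 0 CPM in any library. Of 8 placode and surface ectoderm genes, 4 were tested. Of these, 2 were higher at d4 (Gata3 and Dlx3), 1 was lower, Eya1 did not pass (edgeR adjusted p = 0.101), and Krt5 had no counts. The placode and surface ectoderm genes summed to 17.5 and 18.4 CPM at d4 and 4.98 and 5.31 CPM at d2. Whether such cells had a part in the Foxd3 and Foxi3 values was not tested.

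Of the FoxO genes, whose products are held out of the nucleus by AKT, Foxo4 and Foxo1 moved in opposite directions. Foxo4 was the forkhead gene of highest CPM at d4, with 321 and 357 CPM at d4 against 82.4 and 66.5 CPM at d2, a 4.56-fold rise of the mean (log2 fold change 2.19 ± 0.21 SE, edgeR adjusted p = 0.000359). Foxo1 fell to 24.0 and 20.5 CPM at d4, against 69.6 and 65.96 CPM at d2, 3.05-fold lower (log2 fold change -1.61 ± 0.21 SE, edgeR adjusted p = 0.00118). Foxo3 had 85.5 and 69.9 CPM at d4 and 70.1 and 66.6 CPM at d2, and its days overlapped (log2 fold change 0.19 ± 0.20 SE, edgeR adjusted p = 0.509). Foxo6, a gene of the hippocampus, was near the floor with 2 and 2 counts at d4 and 6 and 4 counts at d2.

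Per kilobase of exon, the balance within the subfamily differed between the days. Foxo4 stood at 33.2 and 43.3 times the level of Foxo1 in the d4 libraries and at 2.94 and 2.51 times in the d2 libraries. Foxo1 stood at 0.245 and 0.256 times Foxo3 at d4 and at 0.869 and 0.866 times at d2, where they were nearly level. The FoxO genes summed to 106 and 114 CPM per kilobase at d4 and 41.1 and 35.6 CPM per kilobase at d2. Replicates of a day differed far less in these ratios than the days did.

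Among 18 regulators of FoxO proteins, all tested, 3 were higher and 1 was lower at d4, beside 12.9% and 11.3% of all genes. Their median log2 fold change was 0.01. With DESeq2 size factors 0 were lower. The kinase Akt1 rose to 130 and 126 CPM at d4, against 52.2 and 36.3 CPM at d2 (edgeR adjusted p = 0.00256). Pik3r1, the regulatory subunit of PI3K, rose to 37.9 and 54.3 CPM at d4, against 13.0 and 16.3 CPM at d2 (edgeR adjusted p = 0.00299). Of 20 described FoxO targets, 4 were higher (Pik3ip1, Ccng2, Bcl6 and Insr), 3 were lower (Klf2, Sesn3 and Fbxo32) and 13 did not pass, beside 12.9% of all genes higher and 11.3% lower. Ccng2, a cyclin that slows the cell cycle, had 130 and 115 CPM at d4 and 22.9 and 25.2 CPM at d2 (edgeR adjusted p = 0.000238). Sesn3, a stress-response gene, had 49.8 and 57.2 CPM at d4 and 147 and 166 CPM at d2 (edgeR adjusted p = 0.00121). Pik3ip1, an inhibitor of PI3K, had 21.5 and 19.7 CPM at d4 against 2.12 and 1.82 CPM at d2, and Klf2, a factor of quiescent endothelium and of naive pluripotency, had 0.254 and 0.176 CPM at d4 against 4.49 and 3.71 CPM at d2.

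Foxh1, the SMAD2 and SMAD3 partner, had the highest level per kilobase of all 42 genes on both days. It stood at 125 and 110 CPM per kilobase at d4 and 63.0 and 47.8 CPM per kilobase at d2. By mean CPM, Foxo4 and Foxk2 stood above Foxh1 at d4, and Foxk2 and Foxm1 at d2. Foxh1 had 171 and 151 CPM at d4 against 86.0 and 65.2 CPM at d2. The mean rose 2.13-fold with no overlap (log2 fold change 1.09 ± 0.22 SE, edgeR adjusted p = 0.00805). The call lay close to the threshold and was lost in edgeR with DESeq2 size factors (adjusted p = 0.0106) and with upper-quartile factors (adjusted p = 0.0113). Of 17 genes of the NODAL pathway that Foxh1 serves, all tested, 8 were higher and 1 was lower at d4. Among all genes tested, 12.9% were higher and 11.3% lower. The median log2 fold change of the 17 was 1.32. Mixl1, a factor of the primitive streak, had 107 and 89.4 CPM at d4 against 0.327 and 0.379 CPM at d2. Eomes, which acts beside it, had 238 and 215 CPM at d4 against 9.96 and 14.2 CPM at d2. Lhx1, a factor of axial and intermediate mesoderm, had 19.6 and 16.0 CPM at d4 against 0 and 0.0758 CPM at d2, and the edgeR adjusted p of these 3 genes ran from 3.96e-05 to 9.94e-05. The receptor Acvr1b, the ligand Nodal, its inhibitor Lefty2 and Smad3 also rose. Gdf3, a ligand of pluripotent cells, was the 1 that fell, to 3 and 0 counts at d4 against 290 and 277 counts at d2. Because Activin A, which acts through the same receptors, was added to the d4 cells only, day and ligand cannot be told apart here.

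FoxK proteins bind DNA as repressors of autophagy genes and as activators of glycolytic genes. Foxk1 had 109 and 89.4 CPM at d4 against 35.6 and 26.5 CPM at d2, a 3.20-fold rise (log2 fold change 1.68 ± 0.24 SE, edgeR adjusted p = 0.0018). Foxk2 had 175 and 159 CPM at d4 and 114 and 94.5 CPM at d2. Both of its d4 libraries lay above both d2 libraries, yet it missed the threshold (log2 fold change 0.68 ± 0.20 SE, edgeR adjusted p = 0.0351). Per kilobase, Foxk1 stood at 0.431 and 0.390 times Foxk2 at d4 and at 0.217 and 0.194 times at d2, so Foxk2 led on both days.

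Among the FoxP genes, which form dimers with each other, Foxp1 fell and Foxp4 did not pass. Foxp1, known in heart, lung and B cells, had 12.7 and 16.1 CPM at d4 against 42.3 and 49.5 CPM at d2, 3.19-fold lower (log2 fold change -1.67 ± 0.23 SE, edgeR adjusted p = 0.00163). Foxp4 had 41.6 and 30.4 CPM at d4 and 30.9 and 17.6 CPM at d2, with the days overlapping (edgeR adjusted p = 0.208). Per kilobase, Foxp1 was at 0.109 and 0.190 times Foxp4 at d4 and at 0.490 and 1.01 times at d2. Foxp2, a gene of speech-related circuits in humans, had 1 and 6 counts at d4 and 2 and 1 at d2, and Foxp3, the factor of regulatory T cells, had 0 and 1 at d4 and 0 and 1 at d2. Foxp1 spans chr6:98925338-99522721 on the minus strand with 19 exons in its main transcript. In the GENCODE M21 annotation its exons overlap those of Gm20696 on the same strand. If the annotation used for counting held both genes, shared reads were not counted and the level of Foxp1 is a lower estimate.

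Foxp1 has 3 RefSeq promoters, which are printed because the gene fell 3.19-fold and each of them holds the forkhead core letters TAAACA on one strand or the other (TGTTTA when the other strand is read). These letters are in capitals.
Foxp1, chr6:99028249-99028548, - strand: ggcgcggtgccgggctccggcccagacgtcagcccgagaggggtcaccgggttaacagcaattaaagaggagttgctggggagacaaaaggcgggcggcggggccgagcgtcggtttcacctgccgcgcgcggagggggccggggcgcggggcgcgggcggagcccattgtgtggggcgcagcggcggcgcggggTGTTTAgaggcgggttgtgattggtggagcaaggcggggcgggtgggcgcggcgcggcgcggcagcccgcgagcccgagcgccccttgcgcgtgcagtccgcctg
Foxp1, chr6:99266466-99266765, - strand: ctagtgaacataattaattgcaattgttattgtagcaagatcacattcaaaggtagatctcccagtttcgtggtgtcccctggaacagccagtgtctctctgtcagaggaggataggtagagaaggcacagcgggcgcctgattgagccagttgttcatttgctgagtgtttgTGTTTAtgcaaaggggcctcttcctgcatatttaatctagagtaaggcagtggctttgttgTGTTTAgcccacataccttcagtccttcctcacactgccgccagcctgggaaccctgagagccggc
Foxp1, chr6:99520944-99521243, - strand: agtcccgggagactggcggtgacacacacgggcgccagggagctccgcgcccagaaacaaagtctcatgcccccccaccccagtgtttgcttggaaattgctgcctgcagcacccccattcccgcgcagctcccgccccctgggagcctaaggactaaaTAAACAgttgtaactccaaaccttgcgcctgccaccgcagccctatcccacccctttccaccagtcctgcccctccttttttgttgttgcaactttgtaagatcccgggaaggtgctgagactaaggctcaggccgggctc
Over all 32 forkhead promoters, 5 promoters of 3 genes (Foxa1, Foxp1 and Foxp3) held the letters on either strand, and of all 32851 promoters 13.4% did. The share among forkhead promoters, with 3 of the 5 from Foxp1, was therefore near that of all promoters, and the matches are a description of sequence. The promoters of Foxp1 also differ in CpG content, with 44, 5 and 13 CpG dinucleotides in 300 bases in the order printed. Counts per gene do not tell which of the 3 was used.

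Of 19 corepressors and cofactors of forkhead proteins, 18 were tested, 1 rose (Tle3), 2 fell (Tle4 and Ctbp2), 15 did not pass, and Tle2 was below the filter, beside 12.9% of all genes higher and 11.3% lower. Tle3 and Tle4, Groucho-type corepressors, moved in opposite directions. Tle3 had 192 and 154 CPM at d4 against 58.7 and 42.4 CPM at d2 (edgeR adjusted p = 0.00157), and Tle4 had 30.1 and 24.5 CPM at d4 against 170 and 158 CPM at d2 (edgeR adjusted p = 0.000196). Ctbp2, a corepressor of the CtBP type, fell to 79.5 and 80.4 CPM at d4, against 325 and 288 CPM at d2 (edgeR adjusted p = 0.000401). Hdac1, a histone deacetylase, had 221 and 215 CPM at d4 and 346 and 346 CPM at d2 and did not pass (edgeR adjusted p = 0.0248).

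Foxm1, the activator of mitotic genes, had 105 and 77.3 CPM at d4 and 93.6 and 68.1 CPM at d2. The days overlapped, and replicate 1 was above replicate 2 on each day by more than the days differed (log2 fold change 0.17 ± 0.25 SE, edgeR adjusted p = 0.63). Its sign changed when d2 replicate 2 (log2 fold change -0.11) or d4 replicate 1 (-0.06) was left out. Of 15 genes listed for the mitotic programme of Foxm1, not all of them its targets, 0 passed in edgeR, in DESeq2 or in limma voom. Of these, 1, Ccnb1, had an unadjusted edgeR p under 0.05. It had 305 and 310 CPM at d4 and 457 and 546 CPM at d2 (edgeR adjusted p = 0.0252). Bub1, Mybl2 and Aurkb, the next by p, had edgeR adjusted p of 0.139, 0.162 and 0.174. The median log2 fold change of the 15 was -0.29. Exons of Foxm1 overlap those of Tex52 on the same strand in the GENCODE M21 annotation. Shared reads were not counted if the annotation used for counting held both genes.

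The broadly expressed genes Foxj2, Foxj3, Foxn2 and Foxn3 gave smaller differences. Foxj2 had 19.5 and 15.3 CPM at d4 and 9.96 and 6.97 CPM at d2, a log2 fold change of 1.04 ± 0.28 SE that missed the threshold (edgeR adjusted p = 0.0263). Foxj3 had 62.2 and 57.3 CPM at d4 and 40.7 and 48.6 CPM at d2 (edgeR adjusted p = 0.153), and Foxn3, a checkpoint repressor, had 72.3 and 82.0 CPM at d4 and 67.5 and 68.8 CPM at d2 (edgeR adjusted p = 0.499). Foxn2 had 31.9 and 51.8 CPM at d4 and 24.1 and 36.5 CPM at d2, with replicate 2 above replicate 1 on each day and the days overlapping (log2 fold change 0.47 ± 0.32 SE, edgeR adjusted p = 0.288). Its transcripts have the lowest GC content of the 42 genes, 41.2%. With the GC trend of each library removed, Foxn2 gave a log2 fold change of 0.75 ± 0.12 SE and passed (edgeR adjusted p = 0.00257). Foxj2 (edgeR adjusted p = 0.00432) and Foxk2 (edgeR adjusted p = 0.00698) passed with it. Foxa3 passed as lower at d4 in the same fit (edgeR adjusted p = 0.00705).

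The FoxA genes, pioneer factors of endoderm and notochord, were low on both days. Foxa2 had 0.761 and 0.705 CPM at d4 (9 and 12 counts) and 0.408 and 0.531 CPM at d2 (5 and 7 counts), and Foxa1 had 5 and 3 counts at d4 and 2 and 3 at d2. Neither reached the filter. Foxa3, the liver member, had 0.338 and 0.294 CPM at d4 and 1.47 and 1.06 CPM at d2, with no overlap. It missed the threshold (log2 fold change -1.98 ± 0.50 SE, edgeR adjusted p = 0.019). With the GC trend of each library removed it passed (edgeR adjusted p = 0.00705), but it did not pass in DESeq2 (adjusted p = 0.0853). Of 10 endoderm markers, 6 were tested, of which Hhex, Sox17, Cer1 and Spink1 were higher at d4, Cldn6 was lower and Hnf4a did not pass (edgeR adjusted p = 0.0202). Hhex, also an endothelial and blood gene, led with 78.4 and 42.8 CPM at d4 against 1.63 and 1.59 CPM at d2. Sox17, which endothelium also expresses, had 8.11 and 4.05 CPM at d4 against 0 counts at d2, and Afp and Ttr were at most at 0.169 and 0.845 CPM. Of 5 node and notochord genes, 3 were tested. T, the gene of primitive streak and notochord, had 21.46 and 16.98 CPM at d4 against 0.408 and 0.607 CPM at d2, Nog also rose, Chrd fell, Noto had no counts, and Shh was at 0.423 and 0.470 CPM at d4. Their part in the Foxa2 values was not tested.

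The other 17 genes below the filter besides Foxa1 and Foxa2 had at most 0.572 CPM in any library. Foxd1, of kidney stroma, had 1 and 5 counts at d4 and none at d2. Foxd2 had a single count at d4, Foxe1, of thyroid, had 1 and 0 at d4 and 0 and 2 at d2, and Foxl2, of ovary, had 1 and 2 at d4 and 0 and 1 at d2. Foxb1, of hypothalamus, had 0 and 1 counts at d4 and 3 and 6 at d2, a ratio of d2 to d4 of 10.2 (exact 95% binomial interval 1.41 to 447). Foxd4 had 1 and 0 counts at d4 and 7 and 0 at d2, so all its d2 counts came from 1 library. Foxi2 had none at d4 and 2 and 1 at d2, Foxb2 none at d4 and 0 and 1 at d2, and Foxr1 none at d4 and 3 and 2 at d2. No count at all was seen for Foxe3 of the lens, Foxi1 of inner ear and kidney, Foxl1 of gut mesenchyme, Foxn1 of the thymus or Foxs1. At this depth such genes are below detection, which does not show that they are silent in every cell.

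Taken per kilobase of exon and summed over the 42 genes, forkhead RNA reached 356 and 340 CPM per kilobase at d4, against 195 and 161 CPM per kilobase at d2. Foxh1 took 35.2% and 32.4% of it at d4 and 32.3% and 29.7% at d2, so its share was similar on both days. Together Foxh1 and Foxo4 took 61.1% and 62.6% at d4 and 44.4% and 41.6% at d2. Without them the other 40 genes summed to 138 and 127 CPM per kilobase at d4 and to 109 and 93.8 CPM per kilobase at d2. The order of the leading genes was Foxh1, Foxo4, Foxk2 and Foxf1 in both d4 libraries and Foxh1, Foxo4, Foxk2 and Foxm1 in both d2 libraries. At d4, Foxh1 and Foxo4 were near each other, with Foxh1 at 1.36 and 1.08 times Foxo4, while at d2 Foxh1 stood at 2.66 and 2.50 times Foxo4. The FoxC and FoxF genes together took 7.45% and 8.36% at d4 and 0.0346% and 0% at d2, nearly all of it Foxf1.

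**Figure D4:**
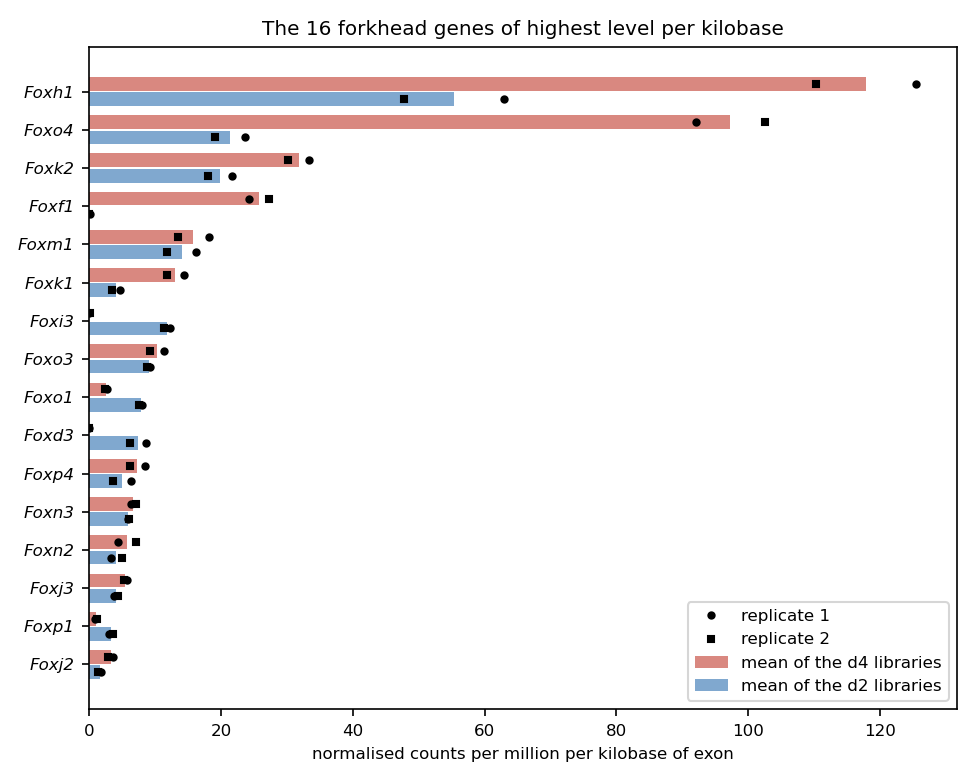
Normalised CPM per kilobase of exon for the 16 forkhead genes of highest level, with bars for the mean of the 2 d4 libraries (red, upper) and the 2 d2 libraries (blue, lower) and points for the single libraries. Foxh1 (125 and 110 at d4) and Foxo4 (92.1 and 103 at d4) stand above all others, and Foxi3 and Foxd3 have visible bars at d2 only.

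Of 16 endothelial genes described as forkhead targets, 15 were tested. At d4, 13 of them rose by edgeR and all 15 had an unadjusted p under 0.05, while Dll4 and Notch4 did not pass (edgeR adjusted p = 0.01003 and 0.021) and Angpt2 was below the filter. Among all genes tested, 12.9% were higher at d4. The median log2 fold change of the 15 was 5.19. Kdr, the VEGF receptor, had 600 and 462 CPM at d4 and 0.653 and 0.682 CPM at d2. Cdh5, the cadherin of endothelial junctions, had 136 and 89.5 CPM at d4 against 0.0816 and 0.0758 CPM at d2. Tal1, a factor of blood and endothelium, had 311 and 257 CPM at d4 against 0.735 and 1.44 CPM at d2, and Cxcr4, a chemokine receptor, had 103 and 104 CPM at d4 against 0.735 and 0.834 CPM at d2. The edgeR adjusted p of these 4 ran from 3.96e-05 to 4.51e-05. Several of these genes also mark endothelial cells, so the list is no separate measure of forkhead activity. Of the markers of other mesoderm, 1 of 4 tested genes of paraxial mesoderm was higher at d4 (Meox1, at 3.13 and 2.76 CPM at d4 against 0.245 and 0.303 CPM at d2), 1 was lower (Dll1), and Tbx6 and Tcf15 did not pass (edgeR adjusted p = 0.49 and 0.911), while Msgn1 and Meox2 had no counts. Which cells carried Foxf1 or Foxc2 was not tested.

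**Figure D5:**
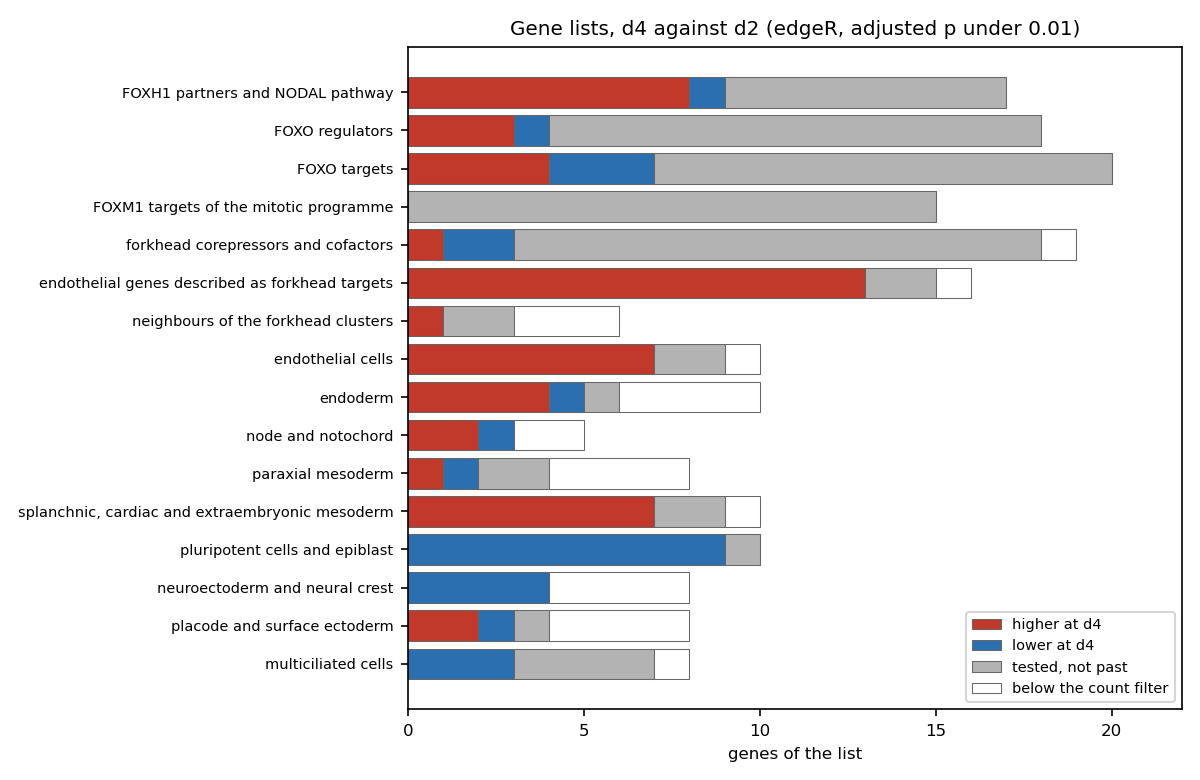
Genes of each list that were higher at d4 (red), lower at d4 (blue), tested but not past the threshold (grey) or below the count filter (white), by edgeR at adjusted p under 0.01. Of the lists tied to forkhead factors, 13 of 16 endothelial genes are red, 8 of 17 NODAL pathway genes are red, and all 15 mitotic genes are grey.

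The calls rest on 2 libraries a day. With d2 replicate 1 left out, edgeR called none of the 13 genes (adjusted p from 0.0189 to 0.0724) and 0 of 14751 genes in all, although 6257 genes, 18 of them forkhead genes, had an unadjusted p under 0.05. Without d2 replicate 2 it likewise called none of the 13 (adjusted p from 0.018 to 0.0761), and 0 genes in all, with 5973 genes, 17 of them forkhead genes, at an unadjusted p under 0.05. Without d4 replicate 1, edgeR lost Foxh1 of the 13 genes, and DESeq2 lost Foxc2, Foxf2, Foxh1 and Foxj1. Without d4 replicate 2, edgeR kept all of the 13 genes and DESeq2 lost Foxj1. DESeq2 with each d2 library left out in turn kept 7 of 11 and 7 of 13 of them, and no fold change of the 13 changed sign.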

How the data were processed

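RNA-seq counts per gene were deposited as 1 table for 4 libraries, 2 at d4 and 2 at d2. The authors trimmed reads with cutadapt, aligned them with STAR and made these counts with featureCounts by strand; reads that mapped to several places or overlapped several genes were left out. The annotation was named in 2 ways. Counts were used as deposited, in edgeR 4.0.16 (R 4.3.3) with TMM factors, day as the only term, a proportion-test filter against 0.5 CPM (adjusted p under 0.05 on either day) and Benjamini-Hochberg adjusted p under 0.01. Standard errors are the log2 fold change over the square root of F. DESeq2 1.42.0, limma 3.58.1, other size factors, other filters, a looser threshold, a replicate block, a GC offset and leaving out each library were the alternatives. Names came for 55141 of 55487 identifiers from GENCODE M21 (GRCm38), which also gave exon lengths and positions. The exon length of a gene joined the exons of all its transcripts, and levels, ratios and shares per kilobase depend on that choice. Exon numbers are those of 1 principal transcript per gene. Same-strand exon overlaps in GENCODE M21 were Foxp1 with Gm20696 and Gm49348 and Foxm1 with Tex52 and Gm44596. The others were Foxd3 with Gm23366, Foxj2 with Mir7231 and Foxp3 with Flicr. These lose shared reads where the annotation used for counting held both genes. Fold changes against a day with no counts used a floor of 3 counts per library, and days with 1 to 3 counts in the fuller library got exact 95% binomial intervals; both cover counting error only.

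Every forkhead gene was named. From each of the 16 gene lists the 4 genes of lowest adjusted p could be named, or all where at most 6 were tested, and further genes were named after their values were seen where a forkhead result turned on them, where they define a cell type or to complete a short count. The members and lists were chosen with earlier results of these data known. No RefSeq promoter was used for Foxf1, Foxn2, Foxq1, Foxc2, Foxp2, Foxh1, Foxj1, Foxk1, Foxs1, Foxb1, Foxo4, Foxm1, Foxe1, Foxl1 and Foxo6. Some genes of the lists that this rule would name are not reported here.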

Additional observations from a re-analysis of the deposited data

How the results depend on the processing

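Of the 13 forkhead genes past the threshold, 11 passed in all 10 alternatives that kept the 4 libraries. The exceptions were Foxh1, lost with DESeq2 size factors and with upper-quartile factors, and Foxc2, lost with DESeq2 size factors (adjusted p = 0.0105). Foxa3, Foxc1, Foxj2, Foxk2, Foxn2 and Foxp4 passed in at least 1 of these alternatives (Foxp4 with the replicate block only, adjusted p = 0.00588), and Foxj3, Foxm1, Foxn3 and Foxo3 in none. Over all genes, 1933 were higher and 1694 lower; with no filter on low counts 2901 and 2873 were, at adjusted p under 0.05 2991 and 2679, with the GC offset alone 2827 and 2740, and with the GC offset and replicate block 3019 and 2962, which called 11 forkhead genes higher. Replicate numbers are shared by the days with no label that ties them. Deviations of same-numbered libraries correlated at r = 0.539 across 14932 genes and at r = 0.226 across the 23 tested forkhead genes. The replicate block called 3478 genes higher and 3496 lower, with 11 forkhead genes higher and 7 lower. Leaving out 1 library in edgeR gave 0 to 2264 genes higher and 0 to 2458 lower, and 0 to 9 forkhead genes higher and 0 to 6 lower. In DESeq2, genes higher and lower were 1042 and 732 without d2 replicate 1 (forkhead genes 4 and 3), 973 and 722 without d2 replicate 2 (forkhead genes 3 higher), 1247 and 1127 without d4 replicate 1 (forkhead genes 4 higher), and 1272 were higher without d4 replicate 2. Foxm1 ranged from -0.11 to 0.41 over the edgeR fits with a library left out, and was -0.062 without d2 replicate 2 and -0.030 without d4 replicate 1 in DESeq2; the cause of these changes was not tested. Of 320 counts of called list genes under the alternatives with 4 libraries, 41 moved by over 1.5 times. Upper-quartile factors moved the median of all genes to -0.11.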
